A study of Mus musculus with 6 samples.

Results

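The genes described here are 58 components of Wnt signalling, chosen by name as ligands, Frizzled receptors and co-receptors, secreted or surface inhibitors, the R-spondin axis, transcription factors, feedback targets and cytoplasmic transducers. Every one of the 58 had an oligo on the array, among 20018 gene symbols in all, and they were read by 72 oligos. The oligos were matched through the RefSeq accession printed for each. Of the 58 genes, 40 were well above background, by the scanner software's own call, on all 3 arrays of at least 1 genotype and were tested for a difference, as were 13466 symbols over the whole array.

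RNA came from endothelial cells isolated by fluorescence-activated sorting from the skin of C57Bl/6J mice, with no treatment after the sort. Wild-type cells (3 samples) were compared with cells deficient in APJ (3 samples), the G protein-coupled receptor for apelin encoded by Aplnr, to ask which expression in these cells relates to APJ. Each sample was hybridised to its own one-colour Agilent array. Each label gives the number of 1 mouse, while the names of the scanner files, but not the labels, give an embryonic stage. The labels used here give neither the knockout allele and the cells in which it acts nor the surface markers of the sort. Whether a sample pools several animals is not settled here, so n counts samples. P-values therefore measure the spread between these 6 arrays, and their number limits the precision of every value.

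Levels are log2 signals relative to the 75th percentile of the same array, so 0 marks that percentile, and every difference is APJ knockout minus wild type. Aplnr itself (NM_011784, chromosome 2) read 3.35, 3.77 and 3.82 in wild type and 1.89, 1.71 and 2.26 in the knockout. Its difference was -1.69 ± 0.19 (SE, n = 3 per genotype; limma adjusted p = 0.0237), so every array matched its label. The knockout still held 30.9% of the wild-type signal, well above background on all 3 of its arrays. The source of that remaining signal was not tested. The 12 endothelial markers, Pecam1 and Cdh5 among them, were well above background on all 6 arrays. Their linear signals, each relative to the percentile, summed to 921.3 to 1013 in wild type and 955.8 to 1036 in the knockout. Replicates 1 and 2 of both genotypes lay on slide 1 and replicate 3 of both on slide 2. A keratinocyte list was uneven: its median level was -2.15, -0.62 and 1.43 in wild type replicates 1 to 3 and -2.22, -2.12 and -2.65 in the knockout. None of its 9 tested markers, of 14 listed, had a difference above 0, and the summed signal was 10.26 to 35.2 in wild type and 10.44 to 11.34 in the knockout. Of the 5 keratinocyte markers not tested, Krtdap was well above background on 4 arrays, Krt1 on 3, Lgals7 on 2, and Epcam and Dsg3 on 1 each. Macrophage markers (10 of 12 tested) had a median difference of 0.79, with 9 of 10 above 0 and summed signals of 11.81 to 20.18 in wild type and 13.2 to 18.02 in the knockout. The sums rest mostly on the bright Csf1r, Mrc1 and Tyrobp, which differed by -0.23, 0.06 and 0.28. The dimmer C1qa, C1qc, Lyz2, Aif1 and Adgre1 differed by 1.79, 1.91, 1.83, 1.11 and 2.07, C1qb by 0.48 and Ptprc by 0.39. Lyz2 and Adgre1 were well above background on only 1 wild-type array, and C1qa and C1qc on 2. After adjustment 0 macrophage markers were called. Fibroblast, mural, and melanocyte and Schwann lists had median differences of -0.15, -0.01 and 0.02.

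Wnt proteins are secreted lipid-modified ligands that bind Frizzled receptors. With the co-receptors Lrp5 or Lrp6 they stop the Axin, Apc and Gsk3 complex from destroying beta-catenin, which then works with LEF/TCF factors to switch on targets such as Axin2. In blood vessels the pathway is best known for building the retinal vasculature and the blood-brain barrier, where Norrin or Wnt ligands act through Frizzled-4, Lrp5 and the tetraspanin Tspan12. In skin it patterns the epidermis, hair placodes and dermis, so Wnt ligands and inhibitors are made by several cell types next to the vessels.

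LEF/TCF factors read a short run of letters, and the start regions of a pair of target genes, Tnfrsf19 and Axin2, are shown. The difference of Tnfrsf19, -0.47, was among the larger ones below, while that of Axin2 was -0.18. Apcdd1, a target with a difference of -0.43, is not shown. The sequences are the 250 bases before an annotated start, 5′ to 3′ on the gene's own strand, from RefSeq on GRCm38.p6. The capitals mark a match, on either strand, to the letters CTTTG followed by A or T and again by A or T, with overlapping matches counted each. Tnfrsf19 has 2 start sites in the table, and only the window at the downstream start holds a match, ATCAAAG, beginning 202 bases before the start. The Axin2 window holds none.
Tnfrsf19, chr14:61046856-61047105, minus strand: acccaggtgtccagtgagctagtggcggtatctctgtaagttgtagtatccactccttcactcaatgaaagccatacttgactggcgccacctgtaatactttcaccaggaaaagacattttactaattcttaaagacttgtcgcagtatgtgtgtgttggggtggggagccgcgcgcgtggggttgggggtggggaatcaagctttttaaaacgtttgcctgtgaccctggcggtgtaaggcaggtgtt
Tnfrsf19, chr14:61037988-61038237, minus strand: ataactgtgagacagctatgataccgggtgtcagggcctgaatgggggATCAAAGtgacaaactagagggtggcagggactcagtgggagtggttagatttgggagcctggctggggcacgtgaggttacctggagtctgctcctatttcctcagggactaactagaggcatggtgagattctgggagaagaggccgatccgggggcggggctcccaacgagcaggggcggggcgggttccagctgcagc
Axin2, chr11:108920099-108920348, plus strand: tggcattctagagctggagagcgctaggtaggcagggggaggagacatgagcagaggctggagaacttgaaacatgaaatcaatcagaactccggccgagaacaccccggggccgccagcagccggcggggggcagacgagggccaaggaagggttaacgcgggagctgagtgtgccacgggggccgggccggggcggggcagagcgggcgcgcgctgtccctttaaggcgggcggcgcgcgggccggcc
Of the 58 genes, 39 had a window in the table. Extended by the 50 bases from the start on, to 300 bases, 9 of their 49 windows held a match (18.4%), those of Wnt3, Wnt5b, Wnt11, Fzd7, Dkk1, Tcf7l2, Lef1, Sp5 and Tnfrsf19. Over all genes with windows there, 5544 of 32851 did (16.9%), so the share in Wnt genes lay near that of all genes.

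On all 6 arrays the RNA of the sorted cells held a broad set of receptors and transducers but few ligands. Markers of other cell types were read in the same RNA, so a call does not assign a gene to the endothelial cells. Of the 58 genes, 38 were well above background on all 6 arrays, 11 on 1 to 5 arrays and 9 on none. The 9 were the ligands Wnt2 and Wnt2b, the receptor Ror1, the inhibitors Dkk1 and Wif1, and Rspo2, Rspo4, Lgr4 and Lgr5 of the R-spondin axis. All 6 cytoplasmic transducers and all 4 transcription factors were detected on every array, as were 14 of 16 receptors and co-receptors. By contrast, this held for 4 of 13 ligands, 3 of 6 inhibitors and 3 of 8 R-spondin genes. A gene not well above background has only an upper bound on its level.

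**Figure D1:**
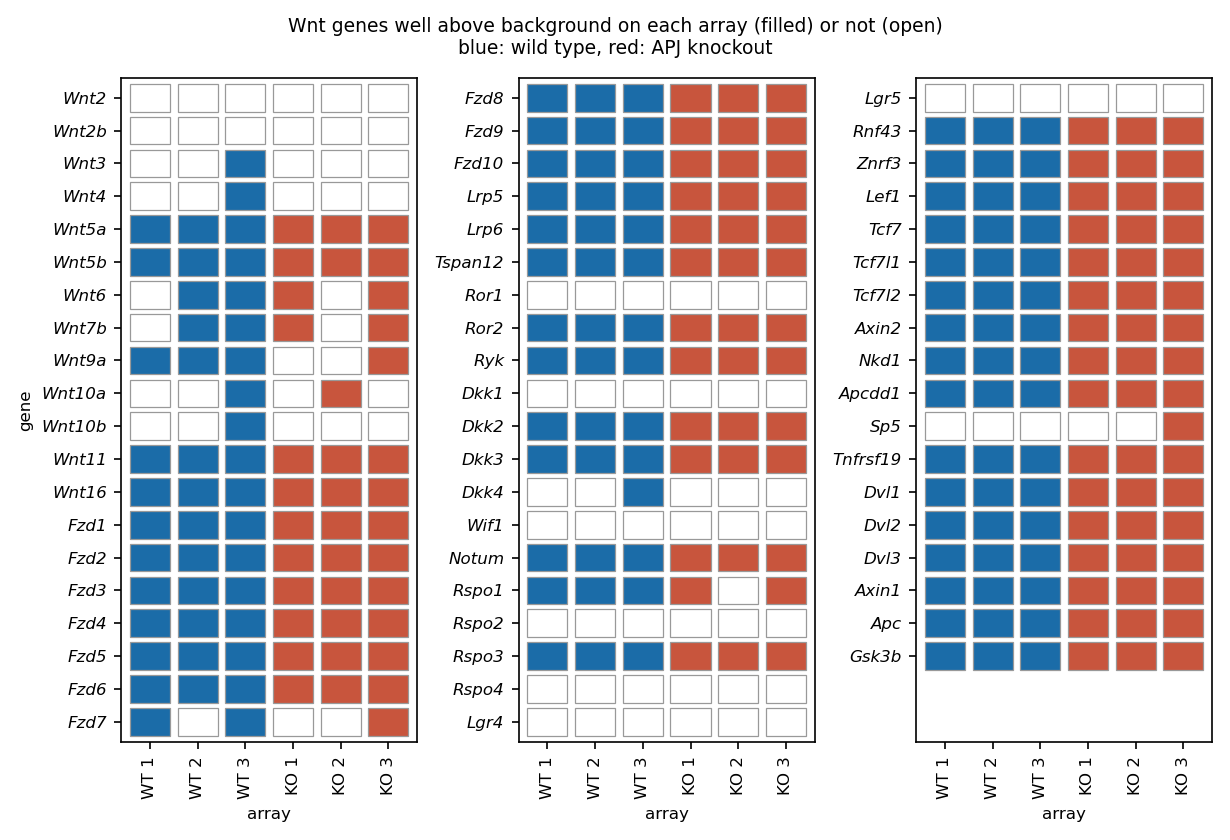
Each row is 1 of the 58 Wnt genes and each column 1 array (WT, wild type; KO, APJ knockout); a filled box marks a gene with an oligo well above background on that array, blue in wild type and red in the knockout. The transducers and 14 of the 16 receptors and co-receptors fill all 6 columns, while Wnt3, Wnt4, Wnt10b and Dkk4 are filled on wild type replicate 3 alone.

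No Wnt gene differed between genotypes after adjustment over everything tested. Across the array 24260 genes or unnamed oligos were tested. Of these 89 were higher in the knockout (0.367%) and 45 lower (0.185%) at a limma adjusted p under 0.05, while 0 of the 40 Wnt genes were called in either direction. These array-wide counts were unstable: blocking on the replicate number gave 4 and 1, and leaving out any 1 array gave 11 to 45 higher and 2 to 27 lower. At an unadjusted limma p under 0.05 there were 4 of 40 (10%), against 8.01% of everything tested. The 4 were Dkk3, higher, and Tnfrsf19, Apcdd1 and Wnt9a, lower. Wnt9a was tested only because it was detected in wild type, the genotype where it read higher; among genes well above background on all 6 arrays the count was 3 of 38, against 7.425% of everything tested. The arrays of the genotypes did not overlap for 5 of 40 (12.5%; Wnt9a, Fzd9, Ryk, Dkk3 and Tnfrsf19), against 12.2% of everything tested, so both shares lay near the background. Differences were above 0 for 18 genes and below 0 for 22, with a median of -0.03 beside -0.02 over everything tested. No tested Wnt gene differed by 2-fold or more. The 95% interval of the difference lay within a 1.5-fold change in either direction for 29 of the 40 and within a 2-fold change for 37, Wnt9a, Fzd2 and Rnf43 being the exceptions. A lower signal in sorted cells can come from fewer cells of a type or from less RNA per cell, which cannot be told apart here.

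**Figure D2:**
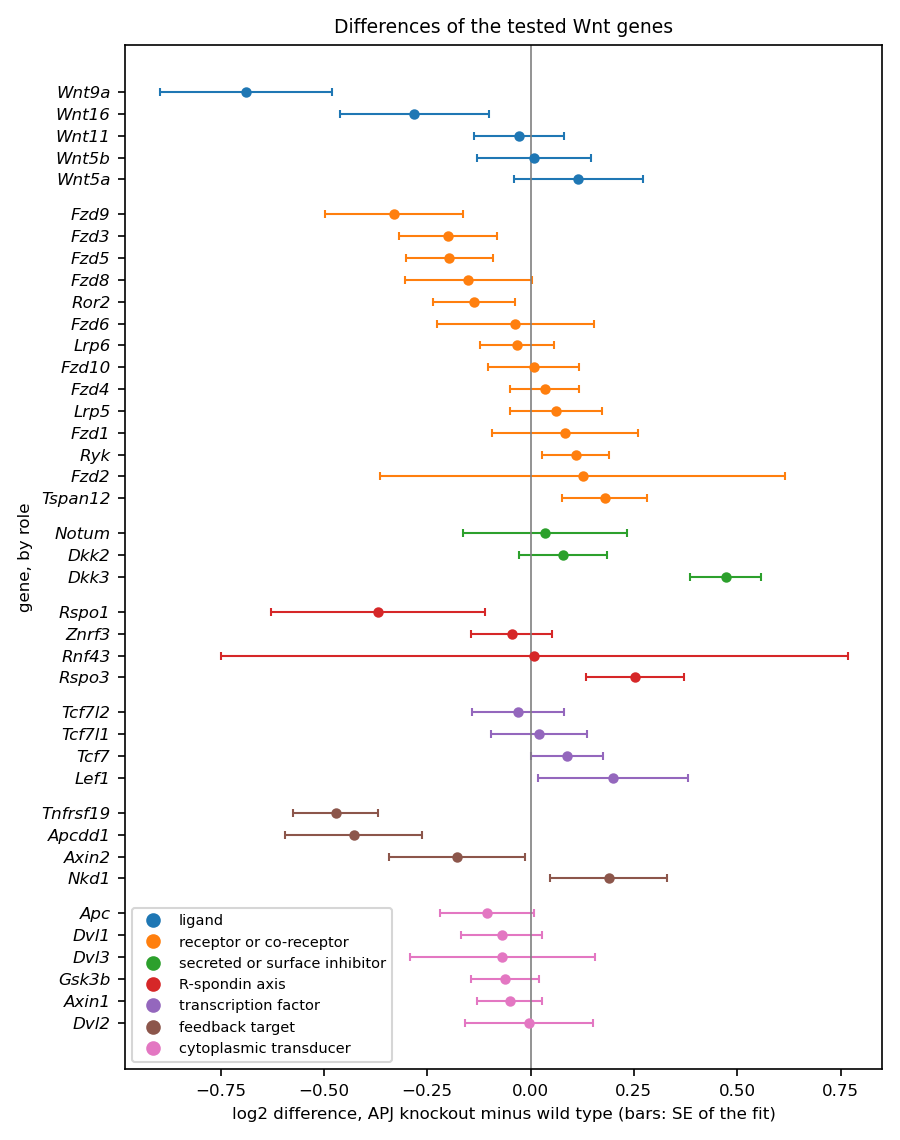
Log2 difference (APJ knockout minus wild type, horizontal axis) of each of the 40 tested Wnt genes, ordered by size within its role, with bars for the standard error of the fit (n = 3 per genotype). Dkk3 at 0.47, Tnfrsf19 at -0.47, Apcdd1 at -0.43 and Wnt9a at -0.69 lie farthest from 0 relative to their errors, and Fzd2 and Rnf43 have the widest bars.

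Among the ligands, 5 of 13 were tested, with differences between -0.69 and 0.12 and a median of -0.03. Over all 13, 8 of which were too dim to test, the median was -0.44. That value is the difference of Wnt2, which was above background on no array, so it does not describe the ligands as a group. Wnt5a, which signals largely without beta-catenin, read -2.80, -2.66 and -2.34 in wild type and -2.34, -2.70 and -2.42 in the knockout. The genotypes overlapped fully, with a difference of 0.12 ± 0.16 (SE; limma adjusted p = 1.00). Wnt11, another mainly non-canonical ligand, read -2.63, -2.80 and -2.89 in wild type and -2.68, -2.86 and -2.88 in the knockout, a difference of -0.03 ± 0.11 (SE). Its 95% interval of -0.29 to 0.23 was among the narrower ones of the ligands. Wnt5b and Wnt16 had differences of 0.01 ± 0.14 and -0.28 ± 0.18 (SE), both with overlapping arrays. A second Wnt16 oligo was well above background on no array.

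Wnt9a (NM_139298, chromosome 11), a ligand with roles in joint and blood development, had the largest difference of the 5 in size but a dim signal. It read -3.97, -3.43 and -4.22 in wild type and -4.50, -4.45 and -4.74 in the knockout. Every knockout array lay below every wild-type array, but only 1 of the 3 knockout arrays was well above background, so the knockout level is in large part a bound. The fitted difference was -0.69 ± 0.21 (SE; 62.0% of wild type; limma adjusted p = 0.357; exact two-sided permutation p = 0.1, the smallest that 3 against 3 allow). It was -0.77 within slide 1 and -0.52 within slide 2, and -0.13 with another background correction. Wnt9a was tested only through wild type, where it read higher, and both p-values rest on knockout signals that mostly failed the background call. Neither is support for a change.

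The other 8 ligands were not tested. Wnt2, a ligand made by liver endothelium, read between -7.33 and -5.66 and was above background on no array. Wnt6 and Wnt7b, which the epidermis expresses, were well above background on 2 wild-type and 2 knockout arrays each, and Wnt10a on 1 of each. Wnt6 read -4.83, -3.64 and -0.93 in wild type and -4.21, -5.18 and -4.15 in the knockout. A single array, wild type replicate 3, stood far above the other 5.

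The same array was the only one with a call for 4 genes: the ligands Wnt3, Wnt4 and Wnt10b and the inhibitor Dkk4, against 1 gene called on knockout replicate 3 alone (Sp5). How often features in general were called on 1 array alone was not counted, so these counts have no background share. Of all oligos, 57.66% were well above background on wild type replicate 3, 58.01% on knockout replicate 3 and 50.36% to 53.27% on the slide 1 arrays. On wild type replicate 3 Wnt4 read -3.58, and between -6.28 and -5.29 elsewhere. For Wnt3 the reading was -4.36 there and between -6.80 and -6.12 elsewhere, and for Wnt10a -2.72 there and between -6.96 and -4.42 elsewhere. Not every such ligand was highest there: wild type replicate 2 read above replicate 3 for Wnt10b (-4.29 against -4.59) and for Wnt7b (-3.89 against -3.93). Wild type replicate 3 was also the array with the highest keratinocyte median, 1.43, followed by wild type replicate 2, at -0.62. The part of keratinocyte RNA in these ligand readings was not tested.

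**Figure D3:**
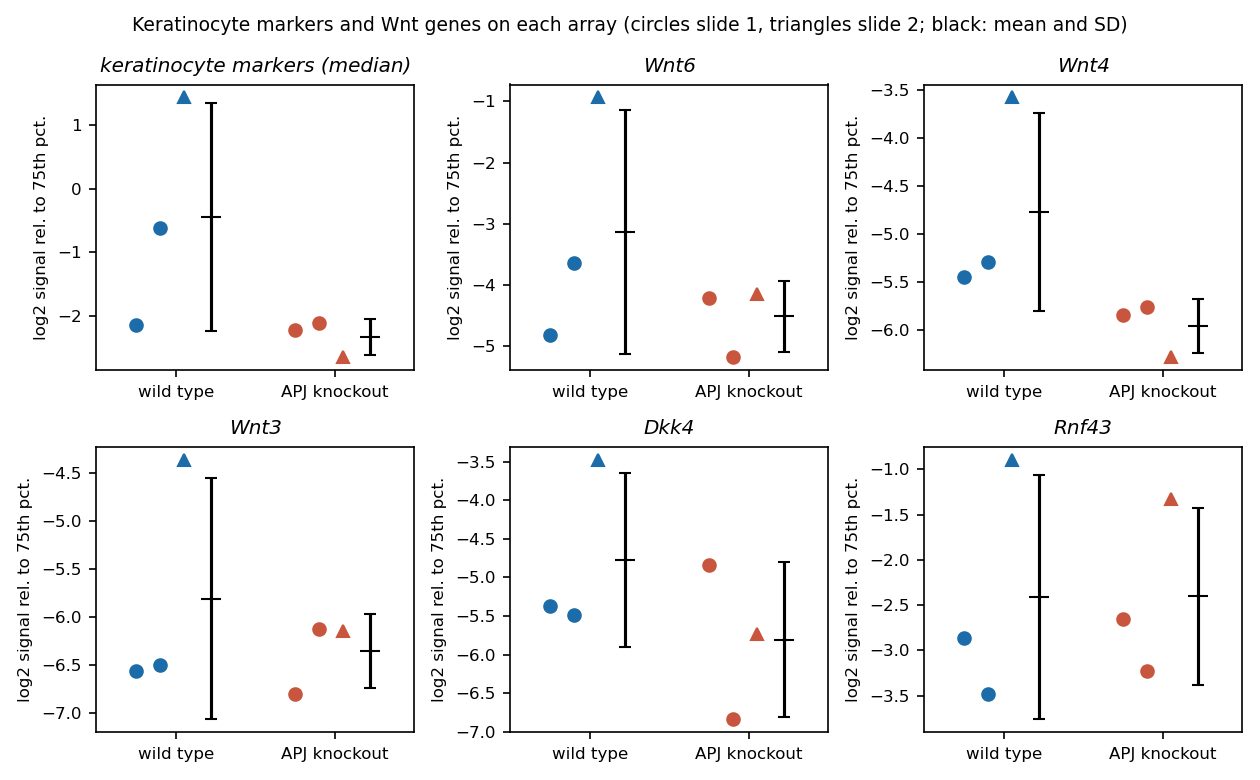
Log2 signal relative to the array's 75th percentile on each of the 6 arrays. Panels show the median of the keratinocyte markers, Wnt6, Wnt4, Wnt3, Dkk4 and Rnf43. Of these, Wnt6, Wnt4, Wnt3 and Dkk4 were not tested, since neither genotype had all 3 of its arrays well above background. Circles are slide 1, triangles slide 2, and black marks the mean and SD (n = 3). Wild type replicate 3 is the top point in every panel, and for Rnf43 the knockout array of slide 2, at -1.33, is next to it.

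Among receptors and co-receptors, 7 of the 14 tested differed upward and 7 downward, with a median of -0.01 and a range of -0.33 to 0.18. Fzd4 (NM_008055, chromosome 7), the Frizzled of the Norrin pathway in vessels, read 3.80, 3.85 and 3.72 in wild type and 3.79, 3.88 and 3.80 in the knockout. The arrays of the genotypes were interleaved, and the difference was 0.03 ± 0.08 (SE; 95% interval -0.17 to 0.24; limma adjusted p = 1.00). Lrp5, its usual co-receptor in the retina, read 2.60, 2.71 and 2.41 in wild type and 2.60, 2.75 and 2.56 in the knockout, a difference of 0.06 ± 0.11 (SE). Tspan12, the tetraspanin that strengthens Norrin signalling through Frizzled-4, read 2.17, 2.34 and 2.13 in wild type and 2.41, 2.49 and 2.28 in the knockout. Wild type replicate 2 lay above knockout replicate 3, so the genotypes overlapped, with a difference of 0.18 ± 0.10 (SE; limma adjusted p = 0.872, or 0.311 with an SE of 0.05 when replicate numbers were a block). Lrp6, the other co-receptor for canonical Wnts, read 3.05, 3.18 and 3.17 in wild type and 3.01, 3.13 and 3.16 in the knockout, a difference of -0.03 ± 0.09 (SE). A second Lrp6 oligo gave 0.09, so the oligos disagreed in sign.

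Fzd9 and Ryk were the receptors whose arrays did not overlap. Fzd9 read 0.87, 1.06 and 0.88 in wild type and 0.25, 0.83 and 0.75 in the knockout, and the genotypes differed by -0.33 ± 0.17 (SE; limma adjusted p = 0.780). The knockout spread was wide, with replicate 1 far below the others and replicates 2 and 3 just under the lowest wild-type array. Ryk, a kinase-like Wnt receptor, read 1.07, 1.01 and 1.12 in wild type and 1.19, 1.14 and 1.20 in the knockout, a difference of 0.11 ± 0.08 (SE; limma adjusted p = 1.00). Fzd10 varied little, with a difference of 0.01 ± 0.11 (SE). Fzd2, in contrast, ran from -4.12 to -2.07 within wild type alone, and its 95% interval of -1.05 to 1.30 sets little limit on a change. A second Fzd2 oligo was well above background on no array. The differences of Fzd1, Fzd3, Fzd5, Fzd6, Fzd8 and Ror2, a Wnt5a receptor, lay between -0.20 and 0.08, all with overlapping arrays. Fzd5 had a second oligo at 0.19, opposite in sign to the first. Fzd7 was well above background on 2 wild-type arrays and 1 knockout array and was not tested.

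Of the inhibitors, 3 of 6 were tested and all 3 differences were above 0, with a median of 0.08. Dkk3 (NM_015814, chromosome 7), a secreted Dickkopf relative that, unlike Dkk1, does not act as a standard Lrp5 and Lrp6 antagonist, had the smallest adjusted p of all 40 genes. It read -1.71, -1.72 and -1.75 in wild type and -1.31, -1.15 and -1.29 in the knockout. Every knockout array lay above every wild-type array, and the wild-type arrays were tightly grouped (-1.72 ± 0.02 against -1.25 ± 0.09, mean ± SD, n = 3 each). The difference was 0.47 ± 0.09 (SE; 139% of wild type; limma adjusted p = 0.102), and it was 0.48 within slide 1, 0.46 within slide 2 and 0.28 with the other background correction. Over the alternatives the limma adjusted p ranged from 0.057, in the fit that took slide as a block, to 0.629. The part that macrophage or other cells, whose markers are given above, have in it was not tested.

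Dkk2, which can act as an agonist or antagonist at Lrp6, read -1.35, -1.43 and -1.62 in wild type and -1.34, -1.32 and -1.50 in the knockout, a difference of 0.08 ± 0.11 (SE). Notum, a surface-acting enzyme that strips the lipid from Wnt proteins, was well above background on all arrays and read 3.42 to 3.91 in wild type and 3.47 to 4.02 in the knockout. Its difference was 0.04 ± 0.20 (SE), and the array on slide 2 was the highest in each genotype. Dkk1 and Wif1 were above background on no array.

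In the R-spondin axis, which raises Wnt sensitivity by removing the receptor-degrading ligases Rnf43 and Znrf3, 4 of 8 genes were tested. Rspo3, a secreted R-spondin needed for vessel formation and remodelling, read -0.95, -1.23 and -1.31 in wild type and -0.98, -0.83 and -0.92 in the knockout. A single knockout array lay within the wild-type range, and the difference was 0.25 ± 0.12 (SE; limma adjusted p = 0.727). Rspo1, well above background on 3 wild-type and 2 knockout arrays, had a difference of -0.37 ± 0.26 (SE), with opposite signs within the slides (-0.71 and 0.31). Its receptor Lgr5 read between -6.73 and -5.41 and, like Lgr4, was above background on no array.

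The ligase genes differed in how they varied. Znrf3 read -2.49, -2.65 and -2.40 in wild type and -2.55, -2.51 and -2.62 in the knockout, a difference of -0.05 ± 0.10 (SE). Rnf43 read -2.86, -3.48 and -0.89 in wild type and -2.65, -3.23 and -1.33 in the knockout. The slide 2 array was the highest in each genotype, so the slides were apart and the genotypes overlapped. The difference of 0.01 ± 0.76 (SE) had a 95% interval of -1.81 to 1.83. On slide 2 the keratinocyte median was 1.43 for the wild-type array and -2.65 for the knockout array, and its part in the Rnf43 readings was not tested.

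The LEF/TCF transcription factors were all tested, with differences between -0.03 and 0.20. Lef1, the factor most often induced together with Wnt activity, read -1.16, -1.25 and -0.75 in wild type and -1.12, -0.81 and -0.63 in the knockout. The genotypes overlapped, and the difference was 0.20 ± 0.18 (SE; limma adjusted p = 1.00). Tcf7 read -1.33, -1.24 and -1.20 in wild type and -1.09, -1.21 and -1.20 in the knockout, a difference of 0.09 ± 0.09 (SE). A dimmer second Tcf7 oligo gave 0.69. It was well above background on 0 wild-type and 2 knockout arrays and was not tested. Tcf7l1, mostly a repressor, and Tcf7l2 had differences of 0.02 ± 0.12 and -0.03 ± 0.11 (SE), and all 3 Tcf7l2 oligos were slightly below 0.

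Of the feedback targets, 4 of 5 were tested, 1 above and 3 below 0, with a median of -0.30 beside -0.02 over everything tested. Tnfrsf19 (also called Troy; NM_013869, chromosome 14), a receptor of the tumour necrosis factor family induced by Wnt activity, read 0.14, 0.01 and 0.21 in wild type and -0.47, -0.23 and -0.36 in the knockout. Every knockout array lay below every wild-type array. The difference was -0.47 ± 0.10 (SE; 72.1% of wild type; limma adjusted p = 0.164; exact two-sided permutation p = 0.1). A second oligo of the gene gave -0.45, and the difference was -0.43 within slide 1 and -0.56 within slide 2. The keratinocyte median was -2.15, -0.62 and 1.43 in wild type replicates 1 to 3 and -2.22, -2.12 and -2.65 in the knockout. The part of keratinocyte RNA in the Tnfrsf19 difference was not tested.

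Apcdd1 (NM_133237, chromosome 18), a membrane inhibitor that Wnt activity itself induces, read -0.14, -0.30 and -0.45 in wild type and -0.42, -0.77 and -0.99 in the knockout. The knockout arrays were lower, with an overlap of 1 array, and the difference was -0.43 ± 0.17 (SE; 74.3% of wild type; limma adjusted p = 0.570). With replicate numbers as a block its SE was 0.08 and its limma adjusted p 0.159, still short of the threshold. Axin2, the most widely used readout of beta-catenin activity and an inhibitor of it, read -1.74, -2.13 and -1.85 in wild type and -2.38, -1.98 and -1.90 in the knockout. The arrays overlapped, and the difference of -0.18 ± 0.17 (SE; 95% interval -0.57 to 0.22; limma adjusted p = 1.00) was not beyond the spread, with a second oligo at -0.16. It shrank to -0.03 without knockout replicate 1. Nkd1, an antagonist that binds Dishevelled, read 0.11, 0.12 and 0.28 in wild type and 0.20, 0.24 and 0.64 in the knockout, with overlapping arrays and a difference of 0.19 ± 0.14 (SE) that shrank to 0.05 without knockout replicate 3. Sp5, a transcription factor induced by Wnt activity, was called on 1 array only.

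**Figure D4:**
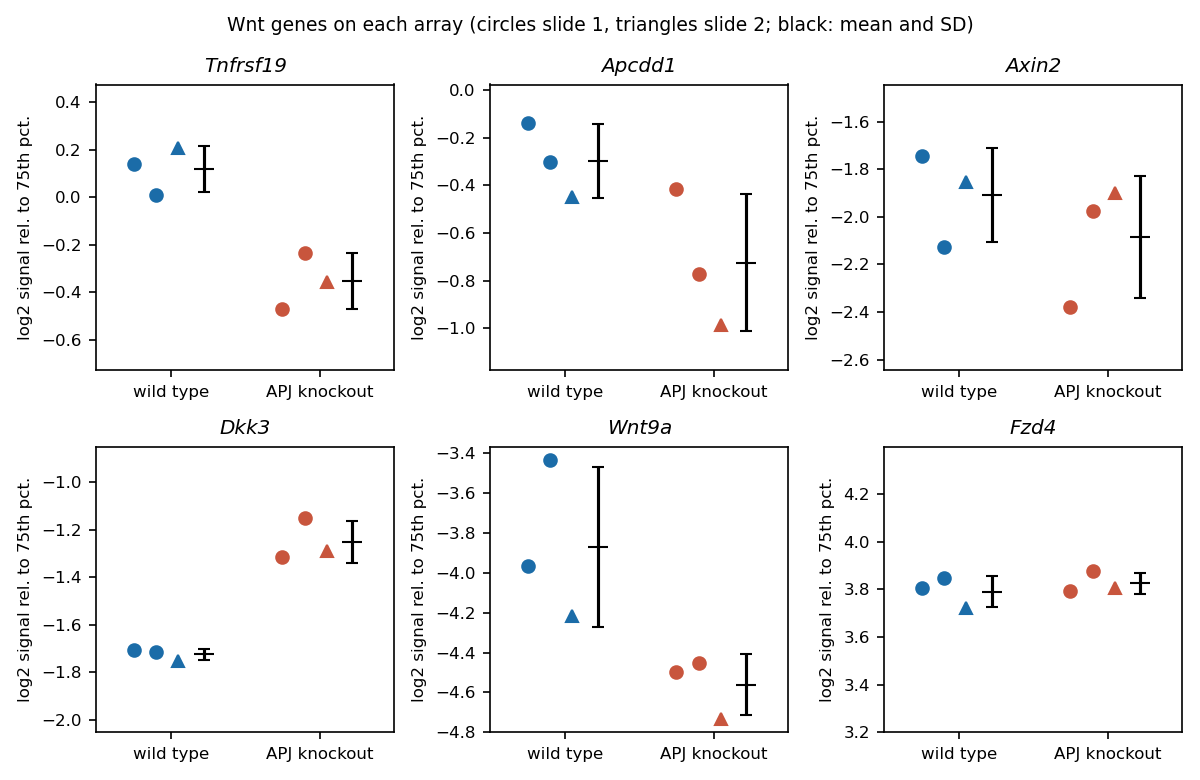
Log2 signal relative to the array's 75th percentile on each of the 6 arrays for the 4 genes with an unadjusted p under 0.05 (Tnfrsf19, Apcdd1, Dkk3 and Wnt9a), and for Axin2 and Fzd4; circles are slide 1, triangles slide 2, and black marks the mean and SD (n = 3). The genotypes are apart for Tnfrsf19, Dkk3 and Wnt9a and overlap for Apcdd1, Axin2 and Fzd4.

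The cytoplasmic transducers differed little between genotypes. All 6 differences were below 0, from -0.11 to -0.004, with a median of -0.07 (Dvl2 was 0.003 with the percentile taken over detected oligos and 0.008 with normexp background correction), and the arrays of the genotypes overlapped for every one. Dvl1, Dvl2 and Dvl3, the Dishevelled proteins that carry the signal from Frizzled, differed by -0.07 ± 0.10, -0.004 ± 0.15 and -0.07 ± 0.22 (SE). Axin1 and Apc, scaffolds of the destruction complex, differed by -0.05 ± 0.08 and -0.11 ± 0.11 (SE). Gsk3b, the kinase that marks beta-catenin for destruction, differed by -0.06 ± 0.08 (SE), while of its 2 further tested oligos 1 was above 0, at 0.08.

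No further gene of the pathway passed the test. Of 51 further genes listed, 39 were tested, 22 of them above 0, with a median of 0.01 and 0 called in either direction by limma. At an unadjusted p under 0.05 there were 4 of 39, near the 8.01% of everything tested. Ctnnb1, which encodes beta-catenin, differed by 0.13 ± 0.12 and Adgra2, the Gpr124 co-activator of Wnt7 signalling in brain vessels, by 0.08 ± 0.09 (SE). Ndp, the gene for Norrin, was above background on no array.

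The 4 genes with an unadjusted limma p under 0.05 were Sfrp1, Sox7, Abcb1a and Daam2. Sfrp1 and Daam2 entered that count only through the genotype where they read higher. Sfrp1, a soluble Frizzled-related inhibitor, read -2.54, -2.97 and -3.34 in wild type and was well above background on no knockout array, at least 6.29-fold lower there (limma adjusted p = 0.055). That p rests on knockout signals that failed the background call. Sox7, an endothelial factor of the SoxF family, read 3.62, 3.60 and 3.44 in wild type and 3.19, 3.13 and 3.06 in the knockout, a difference of -0.42 ± 0.09 (SE; limma adjusted p = 0.166). Abcb1a, an efflux transporter, differed by -0.40 ± 0.14 (SE; limma adjusted p = 0.460). Daam2, a formin of the planar polarity branch, was above background on 3 knockout arrays but only 1 wild-type array, so it was tested only through the genotype where it read higher, and its fitted difference was 1.53 ± 0.51 (SE; limma adjusted p = 0.433). The list of 9 tested genes responsive to beta-catenin had a median of 0.00, with 5 of 9 above 0 and a range of -0.42 to 0.28. It was not split by the direction of that response, so its median is no readout of beta-catenin activity.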

How the data were processed

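Arrays of 6 RNA samples (3 wild type, 3 APJ knockout, grouped by title and genotype label) were analysed. The files deposited by the authors give each spot's linear intensity, which Agilent Feature Extraction (version 10.7.3.1, per the file headers) had corrected for background and spatial trend but not scaled across arrays. A second table from the authors repeats these intensities times 1 constant per array (2.29 to 3.69, with column medians of 63.46, 62.09 and 65.15 in wild type and 66.98, 60.3 and 63.25 in the knockout), and the basis of the constants is unknown here. It gave the same differences.

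Of 59305 non-control spots (55681 oligos) per array, outlier spots were left out (126 to 179 per array), no spot was saturated, and 50.36% to 58.01% of oligos were well above background. From log2 intensity each array's 75th percentile was subtracted, spots of an oligo were averaged, and each gene was read by its brightest tested oligo. The fit used limma (version 3.58.1, R version 4.3.3; lmFit and eBayes with genotype alone), two-sided, with Benjamini-Hochberg adjustment over 24260 tested features. The script was tested on simulated data. The planned normexp alternative was run on median spot signals, since the files hold no mean signals. Symbols came from a RefSeq table of a later assembly (GRCm38.p6) than the array's own coordinates, so no gene positions are given from the array. The Wnt genes and the lists of pathway and marker genes were chosen with earlier results of these data known, as was the rule that names the genes given array by array: an unadjusted p under 0.05, or a place on a list of receptors, ligands, inhibitors and targets usually followed in vessels. At-least-fold values set the mean of the bright genotype against, per dim array, whichever was higher: the oligo's signal there or the weakest signal that passed the background call.

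Replicate numbers were checked as pairs: the deviations of same-numbered arrays from their genotype means correlated at 0.226, 0.152 and 0.646. Within slide 1 the crossed pairs correlated at 0.357 and 0.280, above both same-numbered values there, and the third pair shares slide 2. A pairing by number beyond the slide is therefore not shown. The main fit used genotype alone, and the number entered only as a block in an alternative fit. With the number as a replicate block, 0 Wnt genes were called, and over everything tested 4 were higher and 1 lower, against 89 and 45 without it.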

Additional observations from a re-analysis of the deposited data

How the results depend on the processing

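Under every alternative with a test, limma called 0 Wnt genes in either direction, with 2 (normexp background correction) to 6 (replicate block) at an unadjusted p under 0.05 and a smallest adjusted p of 0.057 (slide as a block). The signs of Dkk3, Tnfrsf19, Apcdd1 and Wnt9a held throughout. Of the alternative values of the 40 single genes, 619 kept their sign and 59 turned it. With normexp, the values that turned were 0.0408 for Wnt11, 0.0335 for Znrf3, -0.0668 for Wnt5b, -0.0269 for Fzd2, 0.0301 for Fzd6, -0.00964 for Fzd10, -0.0887 for Rnf43 and 0.0083 for Dvl2. With the mean of a gene's oligos Lrp6 was 0.0308, and with the percentile over detected oligos Dvl2 was 0.00305. Within slide 1, Znrf3 was 0.0409, Wnt5b -0.0768, Fzd6 0.0153, Fzd10 -0.0368 and Notum -0.000347. Within slide 2, which holds 1 array of each genotype, Fzd2 was -0.878, Rnf43 -0.433, Rspo1 0.312, Dvl2 0.19, Wnt5a -0.087, Ror2 0.0567, Tcf7l2 0.0536, Dvl1 0.0244, Wnt11 0.0166, Gsk3b 0.00637 and Tcf7 -0.00202. Leaving out 1 array at a time gave wide ranges for Rnf43 (-0.531 to 0.768) and Fzd2 (-0.441 to 0.587). Among receptors it gave -0.0442 to 0.237 for Fzd1, -0.000327 to 0.0628 for Fzd4, -0.203 to 0.123 for Fzd6, -0.083 to 0.0668 for Fzd10, -0.0204 to 0.128 for Lrp5 and -0.0742 to 0.0124 for Lrp6. Elsewhere it gave -0.0907 to 0.0431 for Wnt11, -0.0721 to 0.136 for Wnt5b, -0.145 to 0.181 for Notum, -0.113 to 0.0098 for Znrf3, -0.0763 to 0.0759 for Tcf7l1, -0.102 to 0.0282 for Tcf7l2, -0.158 to 0.113 for Dvl2 and -0.247 to 0.0921 for Dvl3. The causes were not tested. The replicate block changed no call of a Wnt gene. Role medians moved in 3 cases. Without a filter on dim oligos, which adds the untested genes, feedback targets had -0.178 and ligands -0.444. The ligand value is that of Wnt2, which was above background on no array. Within slide 2 cytoplasmic transducers had -0.00701, and the cause of that move was not tested. Over everything tested, calls went from 89 higher and 45 lower to 184 and 101 when slides were blocked, 4 and 1 under the replicate block, 3 and 0 without a filter, and 11 to 45 higher and 2 to 27 lower when 1 array was left out. Wnt9a and Rspo1 have no value where an oligo had to be well above background on all arrays.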
